A study of Mus musculus with 6 samples.

Results

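The genes described are 10 components of the Sonic hedgehog pathway, Gli1, Gli2, Gli3, Ptch1, Smo, Cdon, Boc, Gas1, Sufu and Hhip. Their E2A sites are all peaks, at any distance, for which the deposited annotation names one of them as the nearest gene. The 5 peak lists hold 168 such peaks, which merged into 51 sites of 32693 in all when peaks overlapping by at least 1 bp were joined. Of the 10 genes, 9 had a site in at least 1 list, against 52.1% of 21900 protein-coding genes taken from RefSeq, and Gli1 had none.

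The series mapped E2A by ChIP-seq, immunoprecipitation of crosslinked chromatin followed by sequencing, with an antibody to E2A. E2A is the joint name of E12 and E47, alternative splice forms of the E-protein gene Tcf3 that bind E-box DNA as dimers. The cells were neural stem cells of C57BL/6J mouse embryos at stage E12.5, untreated, and kept proliferating with the growth factors EGF and FGF-2 (20 ng/ml of either). Lists come from E12 knockout cells (E12KO, 1 library), E47 knockout cells (E47KO, 1 library) and wild-type cells (wt replicates 1, 2 and 3), while an input library entered no comparison. The labels do not give the knockout alleles, nor whether libraries came from separate embryos, pools or lines, and peak lists hold no expression values with which the cell type could be checked.

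The lists differ in length: 25229 peaks in E12KO, 22176 in E47KO, and 6814, 12772 and 24194 in wt replicates 1, 2 and 3. A site missing from a short list is therefore common among the wild-type replicates themselves. Read depth is unknown. Each knockout is a lone library, so its values have no replicate error and the genotypes could not be tested against each other. Scores for single peaks, the authors' fold enrichment and −log10 q, exist in the table of wt replicate 1 and not in the others, and peaks are ranked within that list by −log10 q. Distances are from the centre of a merged site to the start of the gene's longest transcript in the deposited tables, and positions are mm9 unless another build is named.

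In hedgehog signalling the ligand binds the receptor Patched (Ptch1), which otherwise keeps the membrane protein Smoothened (Smo) inactive. Cdon, Boc and Gas1 are co-receptors that help ligand and Patched meet, and Hhip is a membrane protein that binds ligand and takes it away from the receptor. Smoothened activity sets the balance of the Gli transcription factors. Gli1 and Gli2 act mainly as activators and Gli3 mainly as a repressor, and Sufu holds Gli proteins in the cytoplasm. Ptch1, Hhip and Gli1 are also classical transcriptional targets of the pathway, while Gas1, Cdon and Boc are repressed by it in the neural tube. In the embryonic brain the pathway patterns the ventral neural tube and sustains progenitor proliferation.

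Promoter sequences are shown for the members where a peak covered the start site and the same start could be recognised in the RefSeq promoter table (GRCm38.p6), to show which E-boxes lie directly upstream. The table holds 8 of the 10 genes. For 5 of them the annotated extent from the start to the far end of the gene was equal within 1 bp to that of a transcript in the deposited mm9 tables. The 250 bases before the start are printed 5′ to 3′ along the gene, and capitals mark E-boxes, searched as CANNTG, a pattern that reads alike on both strands.

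Gas1 promoter, GRCm38.p6, chr13:60177536-60177785, minus strand: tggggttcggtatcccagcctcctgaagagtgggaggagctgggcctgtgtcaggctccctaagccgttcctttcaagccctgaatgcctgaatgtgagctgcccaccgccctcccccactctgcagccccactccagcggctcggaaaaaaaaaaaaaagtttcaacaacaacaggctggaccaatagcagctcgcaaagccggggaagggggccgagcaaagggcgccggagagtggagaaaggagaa

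Hhip promoter, GRCm38.p6, chr8:80058009-80058258, minus strand: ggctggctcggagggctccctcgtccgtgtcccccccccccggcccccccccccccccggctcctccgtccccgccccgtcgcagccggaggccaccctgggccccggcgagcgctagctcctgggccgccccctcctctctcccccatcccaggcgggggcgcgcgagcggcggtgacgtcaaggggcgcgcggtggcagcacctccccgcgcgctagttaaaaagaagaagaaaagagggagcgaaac

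Smo promoter, GRCm38.p6, chr6:29735247-29735496, plus strand: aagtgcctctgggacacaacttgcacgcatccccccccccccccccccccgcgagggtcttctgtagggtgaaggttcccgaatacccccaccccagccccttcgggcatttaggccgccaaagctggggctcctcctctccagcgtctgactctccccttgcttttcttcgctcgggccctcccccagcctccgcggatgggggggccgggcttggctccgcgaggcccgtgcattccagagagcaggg

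Gli2 promoter, GRCm38.p6, chr1:119053620-119053869, minus strand: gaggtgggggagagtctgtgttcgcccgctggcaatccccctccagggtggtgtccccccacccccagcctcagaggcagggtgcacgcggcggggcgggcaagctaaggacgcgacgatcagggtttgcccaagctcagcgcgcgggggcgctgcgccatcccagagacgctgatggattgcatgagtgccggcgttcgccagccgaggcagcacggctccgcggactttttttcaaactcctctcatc

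Gli3 promoter, GRCm38.p6, chr13:15463473-15463722, plus strand: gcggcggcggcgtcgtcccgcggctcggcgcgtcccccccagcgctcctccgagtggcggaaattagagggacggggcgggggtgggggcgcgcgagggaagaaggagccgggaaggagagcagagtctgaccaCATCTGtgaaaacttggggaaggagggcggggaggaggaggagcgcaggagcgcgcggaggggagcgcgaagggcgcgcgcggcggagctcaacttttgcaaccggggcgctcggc

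Of these 5 windows, 1 held an E-box: the Gli3 window has CATCTG beginning 116 bases before the start. The variants CAGCTG and CAGGTG or its complement CACCTG, which E proteins are known to prefer, were in none of the 5. Among all 32851 promoter windows of this length in the table, 66.2% held CANNTG, 13% CAGCTG and 17.2% CAGGTG or CACCTG. Of the 6711 windows of genes with a peak over a start site in any list, 56.6% held CANNTG. The Gas1 peak covered the whole printed window in every list, reaching 994 bases before the start in E12KO, 515 in E47KO and 382, 323 and 977 in wt replicates 1, 2 and 3. The Gli2 peak reached 848 bases before the start in E12KO, 391 in E47KO and 353 in wt replicate 3, and the Hhip peak 571 in E12KO, 345 in E47KO, and 115 and 365 in wt replicates 2 and 3. At Gli3 it reached 890 bases before this start in E12KO, 893 in E47KO and 902 in wt replicate 3. The Gli3 peak of wt replicate 2 (15554777 to 15555185) ended upstream of the printed window, as this start is at 15555556 in mm9. The Smo peak reached 97 bases before the start in E12KO and 203 in wt replicate 3. Most of these peaks extend past the printed bases, so a window without CANNTG says only that these letters are not in it.

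Member sites were shared between lists as follows. Of the 51 sites, 27 (52.9%) had a peak in at least 2 of the 3 wt lists, called wt consensus sites here, against 37.4% of all merged regions, and 12 (23.5%) were in all 5 lists, against 12.7%. With wt replicate 2 or 3 left out, and a peak in both other wt lists required, there were 15 or 13 consensus sites in place of 27. The 27 sites belong to 6 genes: 8 at Ptch1, 7 at Gli2, 4 each at Cdon and Gas1, and 2 each at Gli3 and Hhip. Within 10 kb of an annotated start, by the authors' distances, all of these 6 had a consensus site, which is 6 of 10 members beside 16.8% of protein-coding genes. This number was 3 without wt replicate 3, and 3 when all 3 wt lists were required. A peak covered an annotated start in at least 1 list at 6 of the 10 genes (Gli2, Gli3, Smo, Cdon, Gas1 and Hhip), beside 28.5% of protein-coding genes. Counts of peaks per gene also follow gene length and the distance to neighbouring genes, and their part in these counts was not tested.

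**Figure D1:**
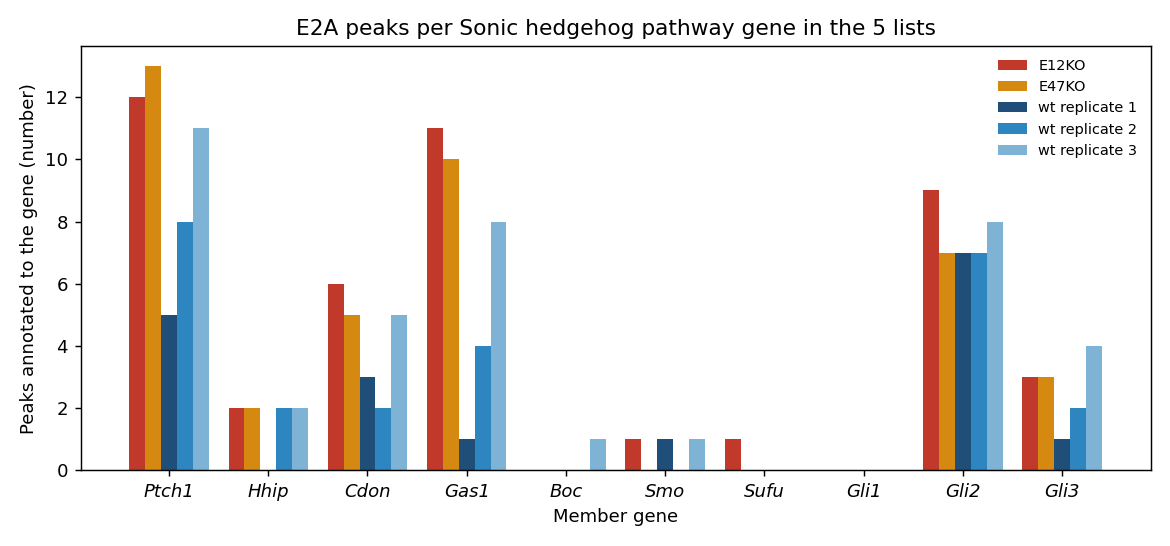
Number of peaks annotated to each of the 10 genes in the 5 lists, with genes on the horizontal axis in the order of receptor, ligand antagonist, co-receptors, Smo, Sufu and Gli factors. Ptch1 has 12 peaks in E12KO, 13 in E47KO and 5, 8 and 11 in wt replicates 1 to 3, and Gli1 has none in any list.

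All 27 wt consensus sites also had a peak in E12KO, and 25 of them in E47KO. With peaks of at least 300 bp alone, 20 of 22 consensus sites had an E12KO peak and 19 an E47KO peak. That limit also applied to the knockout peaks, and it removed E12KO peaks of 263 bp at Ptch1 and 294 bp at Gli2. With peaks of any width, sites without an E12KO peak were thus 0 of 27, beside 3.4% of all wt consensus regions. Sites without an E47KO peak were 2 of 27 (7.41%), beside 6.43%. The share without an E47KO peak lies near the background, and 27 sites are too few to read the E12KO count against 3.4%. The missing pair are intronic sites of Gli2, described with that gene. As a measure of how often a wild-type list itself lacks such a site, sites in wt replicates 2 and 3 were looked up in wt replicate 1: it had 12 of 23 (52.2%, beside 38.7% of all such regions), while E12KO and E47KO had all 23 (beside 98.2% of all such regions in E12KO and 96.0% in E47KO). Of the 15 sites in wt replicates 1 and 3, E12KO had 15, E47KO 14 and wt replicate 2 12, beside 95.9% of all such regions in E12KO, 92.7% in E47KO and 77.1% in wt replicate 2. Of the 13 in wt replicates 1 and 2, E12KO had 13, E47KO 12 and wt replicate 3 12, beside 99.3% of all such regions in E12KO, 98.0% in E47KO and 98.9% in wt replicate 3. Whether the member counts differ from these shares was not tested.

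Another 8 sites (15.7%) were in a knockout list and in no wt list, beside 19.3% of all merged regions, and the count was 19 without wt replicate 3. They were shared by both knockouts at 4 sites, 3 of them at Gas1 and 1 at Ptch1. E12KO alone had a peak in Cdon and in Sufu, and E47KO alone had 2 at Ptch1. Of the remaining 16 sites, found in 1 wt list, 9 were in both knockouts too, all with wt replicate 3, the longest wild-type list. Another 2 were in E12KO and wt replicate 3. The other 5 were in no knockout list: 2 in wt replicate 1, 1 in wt replicate 2 and 2 in wt replicate 3. The shares of all merged regions with these single patterns were not computed.

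**Figure D2:**
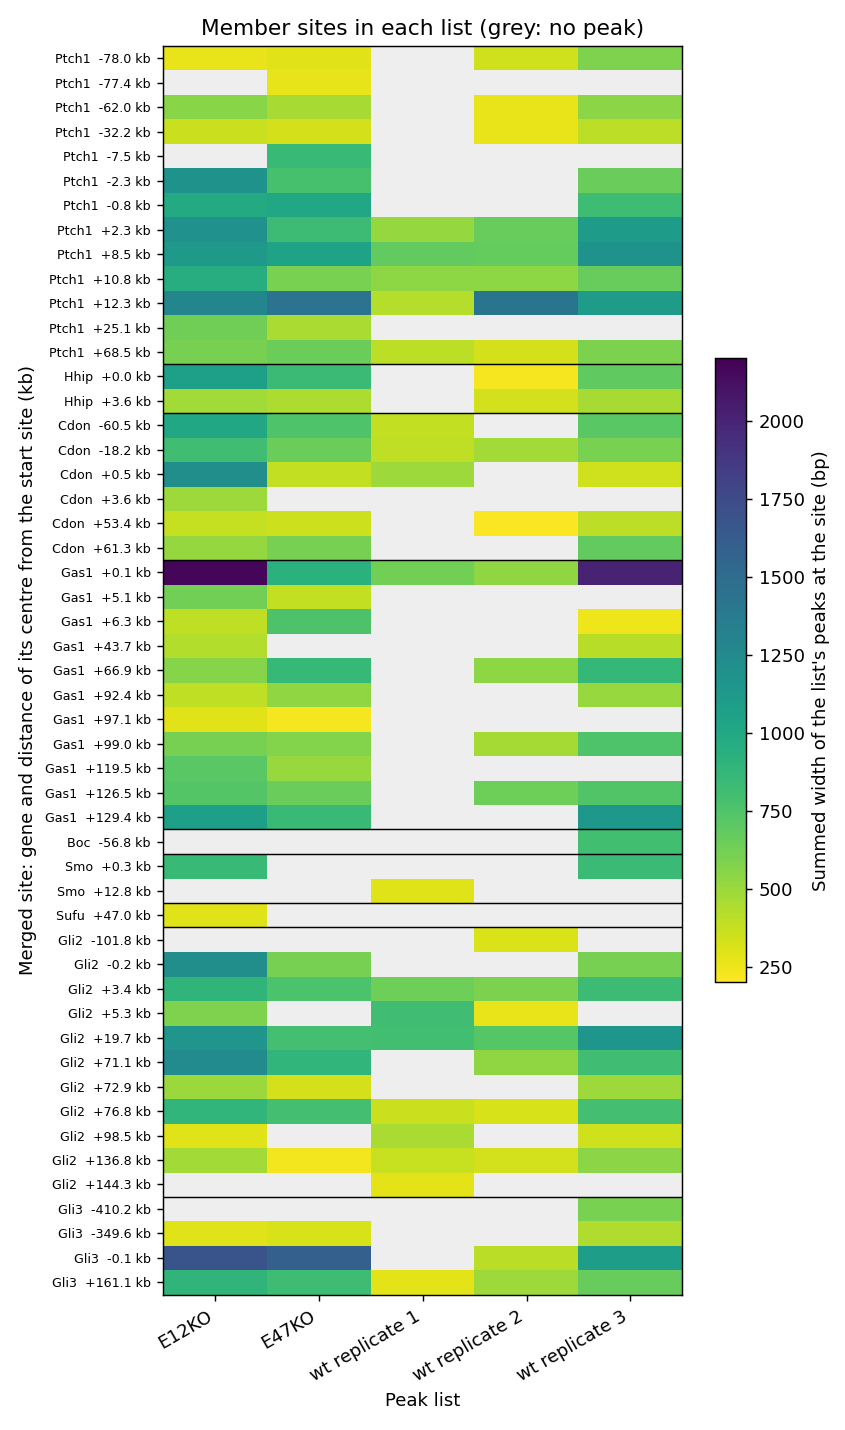
The 51 merged sites (rows, named by gene and by the distance of the centre from the start site in kb) in the 5 lists (columns), shaded by the summed width in bp of the list's peaks and grey where there is no peak. Filled rows across all columns are the 12 sites in all 5 lists, and wt replicate 1 has the most grey cells.

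Ptch1, which encodes the receptor, had the most sites of the 10 genes, 13, of which 8 were wt consensus sites and 5 were in all 5 lists. At least 10 sites were found at 3 of the 10 members (Ptch1, Gas1 and Gli2), a threshold chosen after the values were seen, and at 1.93% of protein-coding genes. At least 13 sites, as at Ptch1, were found at 201 protein-coding genes. The longest Ptch1 transcript runs from 63666828 down to 63612840 on the minus strand of chromosome 13.

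The strongest Ptch1 site was intronic, at chr13:63655510-63656460, 10.8 kb past the start. Its wt replicate 1 peak had a fold enrichment of 15.6 and a −log10 q of 52.4, rank 745 of that list's 6814 peaks (the top 10.9%). The peak was 951 bp wide in E12KO, 602 bp in E47KO and 538, 537 and 666 bp in wt replicates 1, 2 and 3, so the site was in every list and widest in E12KO. Intron numbers in wt replicate 1 run from the other end of minus-strand genes: the deposited tables call this place intron 2 of 22 in the other lists and intron 21 of 22 in wt replicate 1.

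The same intron held the neighbouring sites in all 5 lists. At 12.3 kb (chr13:63653711-63655293) wt replicate 1 gave a fold enrichment of 8.66. The site comprised 2 peaks in E12KO, 1 in E47KO and 1, 1 and 2 in wt replicates 1, 2 and 3, so a single broad peak in E47KO and in wt replicate 2 spanned what E12KO and wt replicate 3 list as separate peaks. At 8.46 kb (chr13:63657768-63658969) the fold enrichment was 5.82, with widths of 1119 bp in E12KO, 1042 bp in E47KO and 681, 672 and 1169 bp in wt replicates 1 to 3. At 2.28 kb (chr13:63663859-63665230) it was 8.32, and the peak was annotated to the promoter of a shorter Ptch1 transcript or to the intron.

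**Figure D3:**
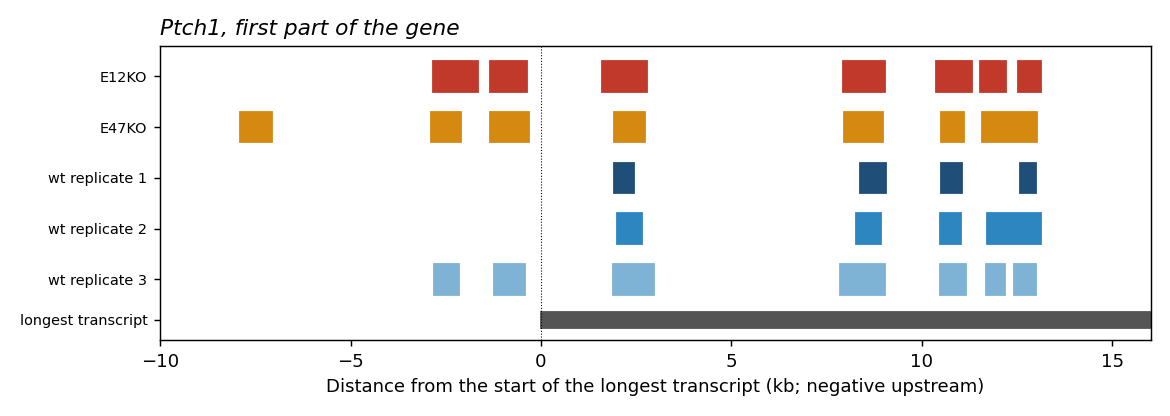
Peaks around the start of the longest Ptch1 transcript, drawn to scale in kb from the start (negative upstream), with 1 row per list and the transcript as the dark grey bar. The 4 sites inside the gene between 2.28 and 12.3 kb appear in all 5 rows, and those at 0.834 and 2.27 kb upstream appear in E12KO, E47KO and wt replicate 3.

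Sites directly upstream of the long Ptch1 transcript were in the longer lists only. The promoter site at chr13:63667149-63668175, centred 0.834 kb upstream, was 980 bp wide in E12KO, 1008 bp in E47KO and 819 bp in wt replicate 3, and wt replicates 1 and 2 had no peak there. The next, 2.27 kb upstream (chr13:63668479-63669723), had the same pattern, with widths of 1180 bp in E12KO, 784 bp in E47KO and 657 bp in wt replicate 3. E47KO alone had a peak 7.48 kb upstream, 841 bp wide, and no other list had any there. A site 25.1 kb past the start (chr13:63641403-63642102), at the start of a shorter transcript, was in E12KO (636 bp) and E47KO (451 bp) and in no wt list.

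Distal Ptch1 sites recurred in most lists. The site at chr13:63598031-63598722 lies beyond the 3′ end of the gene, 68.5 kb from the long transcript's start, and was in all 5 lists with a wt replicate 1 fold enrichment of 10.5, second to the intronic site at 10.8 kb among Ptch1 peaks. Upstream sites at 32.2, 62.0 and 78.0 kb were each in both knockouts and in wt replicates 2 and 3, and none was in wt replicate 1. At the farthest, chr13:63744506-63745088, the peak was 263 bp wide in E12KO, 286 bp in E47KO and 348 and 583 bp in wt replicates 2 and 3, and E47KO listed another peak beside it.

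**Figure D4:**
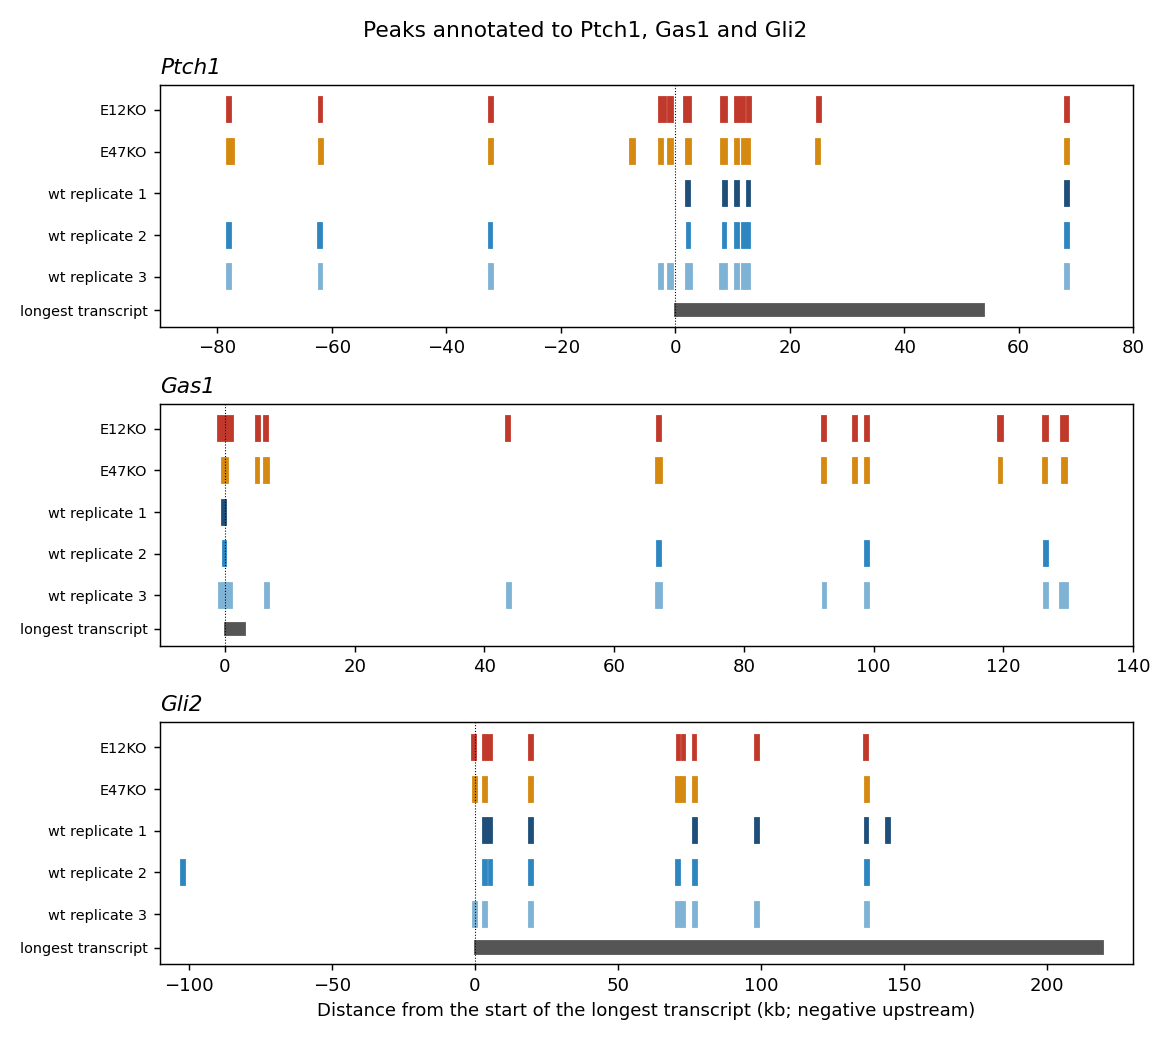
All peaks annotated to Ptch1, Gas1 and Gli2 along the distance from the start of the longest transcript in kb (negative upstream), 1 row per list, with the transcript as a dark grey bar. Positions are to scale but narrow peaks are drawn wider than their true width to be visible. Gas1 sites lie at and downstream of the gene, and 9 of the 11 Gli2 sites lie within it.

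Hhip, the ligand-binding antagonist, had 2 sites, both in E12KO, E47KO and wt replicates 2 and 3 and neither in wt replicate 1. The promoter site, chr8:82581405-82582478, was 1074 bp wide in E12KO, 835 bp in E47KO and 225 and 692 bp in wt replicates 2 and 3. The intron 1 site at 3.58 kb, chr8:82578076-82578585, was 474 bp wide in E12KO, 446 bp in E47KO and 340 and 465 bp in wt replicates 2 and 3. The 2 sites thus had the same pattern of presence, and neither has a score.

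Cdon, a co-receptor of the immunoglobulin superfamily, had 6 sites, 4 of them wt consensus sites. The strongest lay 18.2 kb upstream (chr9:35210095-35210911), was in all 5 lists and had a fold enrichment of 8.04 in wt replicate 1. Its widths were 817 bp in E12KO, 651 bp in E47KO and 394, 474 and 606 bp in wt replicates 1, 2 and 3.

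The Cdon promoter site, chr9:35228556-35229770, was in 4 lists and missing from wt replicate 2, with a fold enrichment of 6.76. Its peaks differ in position: the E12KO peak (1215 bp) and the wt replicate 3 peak (341 bp) covered the start, while those of E47KO (381 bp) and wt replicate 1 (492 bp) lay just past it. The E47KO peak began at 35229138, beyond the end of the wt replicate 3 peak at 35228966, so those lists share the merged site without overlapping each other. A site 60.5 kb upstream was in both knockouts and in wt replicates 1 and 3 (fold enrichment 4.77), and one in the last intron at 53.4 kb was in both knockouts and in wt replicates 2 and 3. A second site in that intron, at 61.3 kb, was in E12KO, E47KO and wt replicate 3, and E12KO alone had a 494 bp peak in intron 1.

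Gas1, a membrane-anchored co-receptor first known as a growth arrest gene, is a short gene of 3131 bp with 11 sites. Its promoter site, chr13:60277719-60279890, covered the start in all 5 lists, with a fold enrichment of 7.42 and a −log10 q of 12.9 in wt replicate 1. The peak was 2172 bp wide in E12KO, 926 bp in E47KO and 626, 534 and 2004 bp in wt replicates 1, 2 and 3, so it was broad in E12KO and wt replicate 3 and narrower in the other lists.

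The other 10 Gas1 sites all lay on the downstream side, from 5.08 to 129 kb past the start, and none was in wt replicate 1. Of these, the sites at 66.9, 99.0 and 127 kb were in wt replicates 2 and 3 and in both knockouts. The site at chr13:60211544-60212433 (66.9 kb) was 566 bp wide in E12KO, 861 bp in E47KO and 536 and 866 bp in wt replicates 2 and 3. Those at 5.08, 97.1 and 120 kb had peaks in E12KO and in E47KO but not in wild type, and the one at 43.7 kb was in E12KO and wt replicate 3. Gm5084, the next gene on the upstream side in RefSeq order, was named as nearest gene by 11 peaks over the 5 lists, which are not counted for Gas1.

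Boc, a co-receptor related to Cdon, shows what naming by the nearest start leaves out. A single peak was annotated to it, 56.8 kb upstream in wt replicate 3 (809 bp). In its introns, however, lay 2 wt consensus sites that the tables assign to other genes with nearer starts. The site in intron 8 of 18, chr16:44493596-44494801, is assigned to Cfap44 and was 1009 bp wide in E12KO, 876 bp in E47KO and 756 and 1136 bp in wt replicates 2 and 3. The site in intron 1, chr16:44530694-44531749, is assigned to Mir3081 and was 1053 bp wide in E12KO, 419 bp in E47KO and 356 and 714 bp in wt replicates 2 and 3. Neither was in wt replicate 1. Which gene a site acts on is not measured here.

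Smo, the signal transducer, had 2 sites and no wt consensus site. Its promoter site, chr6:29685294-29686251, covered the start in E12KO (852 bp) and wt replicate 3 (834 bp), and was not listed in E47KO or in wt replicates 1 and 2. Wt replicates 1 and 2 are shorter lists than E47KO, while wt replicate 3, which holds the site, is of similar length to E47KO. Whether its absence from E47KO goes with the genotype was not tested. An intron 1 site at 12.8 kb was in wt replicate 1 alone, with a fold enrichment of 3.55, the lowest of that list's 18 member peaks.

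Sufu, the cytoplasmic inhibitor of Gli proteins, had a single annotated peak, 297 bp wide in intron 2 in E12KO. As at Boc, further intronic peaks were assigned to a neighbour, here Trim8: of 9 peaks placed in a Sufu intron over all lists, 1 carried its name. The broadest was chr19:46558178-46559719 in the last intron, with widths of 1542 bp in E12KO, 1339 bp in E47KO and 1198 bp in wt replicate 3. A site at chr19:46544855-46546529 had the same 3 lists, with widths of 1159 bp in E12KO, 1530 bp in E47KO and 1132 bp in wt replicate 3. Another, at chr19:46526733-46527173, was in E12KO and wt replicate 2. None of these Sufu sites was in more than 1 wt list.

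Gli1, a target of the pathway that amplifies its output, had no peak in any of the 5 lists by its name, and no peak was placed in a Gli1 intron or exon. Its adjacent genes in RefSeq order, Arhgap9 and Inhbe, were named by 0 peaks as well. A list of called peaks does not show binding below the caller's threshold, so binding at Gli1 was not detected rather than shown to be absent.

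Gli2, the main activator downstream of Smoothened, had 11 sites, 9 of them inside its longest transcript, which spans 219559 bp on the minus strand of chromosome 1. The strongest, in intron 1 at 3.43 kb (chr1:120946322-120947217), had a fold enrichment of 15.5 and a −log10 q of 66.0 in wt replicate 1. It was the highest of all member peaks by −log10 q, rank 517 of 6814 (the top 7.59%). The peak was 895 bp wide in E12KO, 769 bp in E47KO and 641, 595 and 829 bp in wt replicates 1, 2 and 3. Between lists its lower edge ran from 120946322 to 120946476 and its upper edge from 120947070 to 120947217.

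Another 3 Gli2 sites were in all 5 lists: at 19.7 kb in intron 1 (fold enrichment 5.93), and at 76.8 kb (8.67) and 137 kb (7.65) in intron 2. At the first of these, chr1:120929901-120931054, the peak was 1154 bp wide in E12KO, 794 bp in E47KO and 809, 730 and 1148 bp in wt replicates 1, 2 and 3. A site at 71.1 kb (chr1:120878449-120879684) was missing only from wt replicate 1, with widths of 1236 bp in E12KO, 880 bp in E47KO and 530 and 811 bp in wt replicates 2 and 3. The promoter site, chr1:120949837-120951044, was in E12KO (1208 bp), E47KO (608 bp) and wt replicate 3 (607 bp). A site at 72.9 kb was in the same lists. Sites at 144 kb (wt replicate 1, fold enrichment 6.76) and 102 kb upstream (wt replicate 2) were each in a single list.

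The Gli2 gene held the 2 wt consensus sites of all members that had no E47KO peak. The site in intron 1 at 5.30 kb, chr1:120944487-120945304, was 586 bp wide in E12KO and 814 and 269 bp in wt replicates 1 and 2, with a fold enrichment of 11.4. Wt replicate 3 lacked it as E47KO did, although both lists hold the neighbouring site at 3.43 kb. The site in intron 2 at 98.5 kb, chr1:120851436-120851900, was 294 bp wide in E12KO and 452 and 343 bp in wt replicates 1 and 3, with a fold enrichment of 7.73, and wt replicate 2 lacked it. A wt list also lacks each site, and whether their absence from E47KO goes with the genotype was not tested.

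Gli3, the main repressor form of the family, had 4 sites. Its promoter site, chr13:15554654-15556346, was 1681 bp wide in E12KO, 1590 bp in E47KO and 409 and 1083 bp in wt replicates 2 and 3, and was not in wt replicate 1. The intron 4 site at 161 kb (chr13:15716170-15717114) was in all 5 lists, with widths of 895 bp in E12KO, 823 bp in E47KO and 280, 490 and 664 bp in wt replicates 1, 2 and 3. In wt replicate 1 its fold enrichment was 5.24, and its −log10 q of 5.72 gave it rank 6225 of 6814, so a peak low in that list was found in every other list. The remaining Gli3 sites lay 350 and 410 kb upstream. The nearer was in E12KO, E47KO and wt replicate 3. The farther was in wt replicate 3 alone and is annotated as an intron of another transcript.

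In wt replicate 1 the 18 member peaks were of ordinary strength for that list. Their median fold enrichment was 7.69, with a range of 3.55 to 15.6, against a median of 7.48 for the whole list, and 10 of the 18 were above the list's median. Gli2 and Ptch1 supplied 12 of the 18 and the 7 with the highest −log10 q. Over all member peaks the median width was 636 bp in E12KO, 650.5 bp in E47KO and 437, 470 and 660.5 bp in wt replicates 1, 2 and 3, so E12KO was not the widest. Over the whole lists it was 616 bp in E12KO, 550 bp in E47KO and 432.5, 420 and 549 bp in wt replicates 1, 2 and 3. At the 11 member sites with exactly 1 peak in each list, median widths were 895 bp in E12KO, 794 bp in E47KO and 516, 534 and 799 bp in wt replicates 1, 2 and 3. At all 3741 such sites they were 889 bp in E12KO, 786 bp in E47KO and 469, 547 and 811 bp in wt replicates 1, 2 and 3. In both of these sets E12KO had the highest median.

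**Figure D5:**
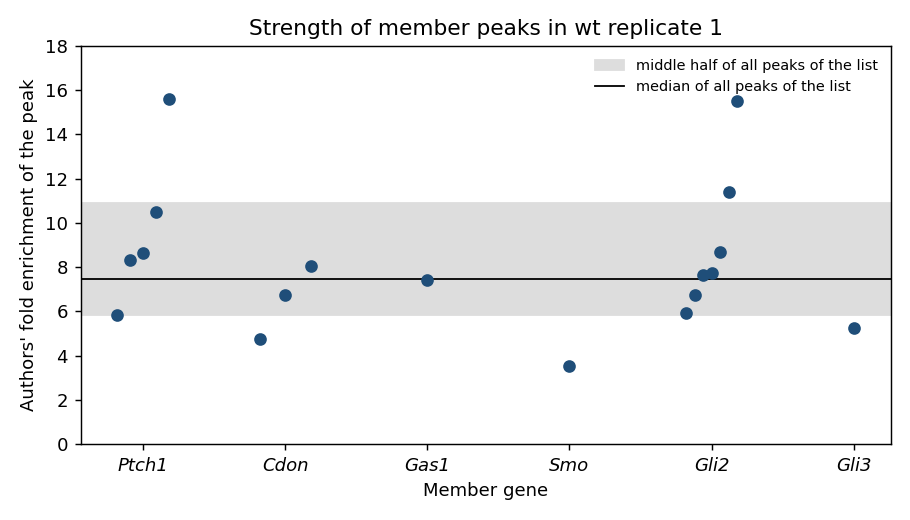
Authors' fold enrichment (vertical axis, linear, from 0) of the 18 member peaks in wt replicate 1, 1 point per peak, by gene. The line is the median of all 6814 peaks of the list (7.48) and the grey band runs from 5.85 to 10.9, the lower and upper quartiles of that list. The 2 highest points, at 15.6 and 15.5, belong to Ptch1 and Gli2.

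Among 25 other genes of the pathway, 19 had a site in some list, beside 52.1% of protein-coding genes, and 11 had a wt consensus site within 10 kb of the start, to be read against the same 16.8% of protein-coding genes. A site in all 5 lists within that distance was found at 2 of them: the promoter of Gsk3b, a kinase that phosphorylates Gli proteins (fold enrichment 5.51 in wt replicate 1), and a site 1612 bp upstream of Kif7, a ciliary kinesin that regulates Gli proteins (4.85). The share of protein-coding genes with a site in all 5 lists at this distance was not computed, so this count has no background. Named after their values were seen, Shh, the ligand gene itself, had a site 9.08 to 9.39 kb upstream in both knockouts and in wt replicates 2 and 3. That place is annotated as an intron of another gene. Lrp2, which encodes a large endocytic receptor that binds the ligand, was the single gene of the 11 with no E12KO peak at its consensus site. That promoter peak was in E47KO and in wt replicates 1 and 3, so wt replicate 2 lacked it too. All 11 had a peak in E47KO. Over all wt consensus regions, 3.4% lacked a peak in E12KO and 6.43% in E47KO, and 11 genes are too few to set against these shares.

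Of 11 genes known to respond to hedgehog signalling in neural progenitors, 10 had a site, beside 52.1% of protein-coding genes, and 4 a wt consensus site within 10 kb (Ccnd1, Ccnd2, Hes1 and Olig2), beside 16.8%. Each of these 4 had a peak in both knockouts, and over all wt consensus regions 3.4% lacked one in E12KO and 6.43% in E47KO. Hes1, which encodes a bHLH repressor shared with Notch signalling, had a site in all 5 lists 1461 bp upstream of its start with a fold enrichment of 16. Olig2, a bHLH factor of ventral progenitors, had one 3058 bp upstream at 4.02-fold. For sites in all 5 lists within 10 kb, the share of protein-coding genes was not computed.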

How the data were processed

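The authors deposited 1 annotated peak table per ChIP library, not for pooled samples. The tools named per the submitters' processing notes are MACS2 2.1.0, BWA 0.7.13 and Picard 1.119, with the mm9 build. How each was set is not given in the sources used here. Per the file headers, each table gives a peak's start, end and width, the annotated feature, the gene with the nearest start and the signed distance to it. Only the deposited table of wt replicate 1 has, per peak, −log10 p and −log10 q values, a fold enrichment (a ratio) and a pileup signal. The deposited names carry a different false discovery rate label for wt replicate 1 than for the other 4 lists. Its list may therefore differ in threshold as well as in length, and its distances are measured to another edge of the peak.

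Peaks of the 5 lists were merged where they overlapped by at least 1 bp, in Python 3.11.15 with pandas 2.3.3, after the merging had been tested on simulated data. A site belonged to a member when a peak in it named that gene, and a list held a site when any of its peaks lay in it. Shares over all regions and over the protein-coding genes of the RefSeq gene table (GRCm38.p6, used for names, gene class and gene order only) are given as background. Alternatives were a larger overlap, a stricter consensus, a score limit, a minimum width, assignment by gene body and leaving out each wt list. No test was made. All 10 members are named, and of the 2 further lists those genes with a site in all 5 lists within 10 kb; Shh, Lrp2, Ccnd1 and Ccnd2 were named after their values were seen. Members and lists were chosen with earlier results of these data known.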

Additional observations from a re-analysis of the deposited data

How the results depend on the processing

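An overlap of at least 50% changed none of the 6 counts. The score limit removed no member peak, and a stricter consensus cannot alter the site total or the knockout-only count, so these say nothing about stability. Requiring all 3 wt lists left 12 consensus sites in place of 27, 12 of them with an E12KO peak and 12 with an E47KO peak, and 3 genes with a consensus site within 10 kb in place of 6. Leaving out wt replicates 1, 2 and 3 in turn gave 23, 15 and 13 consensus sites, 23, 15 and 13 of them with an E12KO peak and 23, 14 and 12 with an E47KO peak. The genes with a near consensus site were then 5, 4 and 3. With a list gone, a consensus site needed a peak in each of the others, which lowers these counts by construction. Sites in a knockout list and no wt list stayed at 8 when either of the shorter wt lists was left out and became 19 without wt replicate 3, the longest. The total of 51 sites ranged from 49 to 50 when a wt list was left out. With peaks of at least 300 bp only, 22 consensus sites were left, 20 with an E12KO peak and 19 with an E47KO peak. The limit itself removed E12KO peaks of 263 bp at Ptch1 and 294 bp at Gli2. These counts therefore do not show that E12KO lacks a peak at a consensus site. Assignment by gene body, possible for 9 genes, gave 40 sites and 21 consensus sites, 21 with an E12KO peak and 19 with an E47KO peak. Depth is unknown, and a peak list does not show binding below its threshold. No paired analysis was possible because each knockout has 1 library, whose label carries no replicate number.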
